A study of Mus musculus with 6 samples.

Results

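The immunoglobulin variable (V) genes are the germline segments from which the antigen-binding end of every antibody chain is built. They were taken here as the genes in the deposited table whose symbol begins with Ighv, Igkv or Iglv and whose counts in the 6 libraries sum to 30 or more. This gave 159 of 26776 genes, made up of 80 heavy chain genes (Ighv), 76 kappa light chain genes (Igkv) and 3 lambda light chain genes (Iglv), in 34 V subfamilies. Another 29 V genes of the table had fewer counts. Just inside the minimum were Igkv4-86 with 30 counts and Ighv7-4 and Ighv3-8 with 31 counts each, and just outside it were Ighv1-74 with 25, Igkv9-129 with 23 and Ighv1-67 with 22. Each of these 6 genes had 0 counts in the 3 eGFPhi libraries.

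RNA came from LT-HSCs (long-term haematopoietic stem cells, which keep blood formation going over long periods) of the bone marrow of Trim47+/eGFP mice. By the genotype name, one Trim47 allele of these mice holds a reporter for enhanced green fluorescent protein (eGFP), and cells of both groups have it. Cells with high reporter fluorescence (eGFPhi, n = 3 libraries) were compared with cells with low fluorescence (eGFPlo, n = 3 libraries). The sources used here do not give age, sex, the number of animals or the LT-HSC gate, nor whether replicates stem from different animals, so a p-value refers to the spread between these libraries alone.

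In a developing B cell, V(D)J recombination cuts the DNA and joins a V segment to J segments, and in the heavy chain to a D segment as well. The rearranged V exon is then transcribed and spliced to a constant region exon. V segments fall into subfamilies of closely related sequence, and which V genes are in use differs between kinds of B cell. Antibody transcripts are a defining product of B lineage and plasma cells, and germline V segments can also be transcribed before they are joined. Counts per gene do not show whether a V transcript was rearranged, nor which heavy chain was made with which light chain.

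Libraries held 11221070, 26058391 and 19460211 counts in eGFPhi and 11706873, 14333582 and 18151852 counts in eGFPlo. The gene carrying the reporter, Trim47, averaged 23.7 ± 2.29 CPM (counts adjusted for library size, here by TMM) in eGFPhi and 8.12 ± 0.818 CPM in eGFPlo (SD, n = 3 each; log2 fold change 1.54, SE 0.11, edgeR adjusted p = 1.69e-05). Of 9 genes that mark LT-HSCs, 8 (all but Ly6a) were higher in eGFPhi past the threshold, and the list's summed level was 1917 to 2123 CPM in eGFPhi and 915 to 952 CPM in eGFPlo. B lineage and plasma cell genes were present in both groups and mostly lower in eGFPhi; their values stand beside the V results below. Throughout, a fold change is eGFPhi over eGFPlo, called when the Benjamini-Hochberg adjusted p of edgeR's quasi-likelihood test over all genes was under 0.05. By that rule 64% of 18081 tested genes were called, 31.7% lower and 32.3% higher in eGFPhi, so a call by itself separates V genes little from other genes.

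All Ighv members lie on chromosome 12 between 113578504 and 116000461 on the minus strand of mouse build GRCm38, the Igkv members on chromosome 6 between 67555497 and 70704177 (31 on the plus and 45 on the minus strand), and the Iglv members on chromosome 16 between 19085017 and 19260859 on the minus strand. The annotation types all 159 as V segments. Sequences of the V exons that carry the results are shown 5′ to 3′ on the coding strand, from the GENCODE M21 transcripts on GRCm38. Capitals mark the motif TANNNNTGN in the reading frame, which holds the codons of the conserved tyrosine and cysteine that precede the V junction. It was searched in frame on the coding strand alone, in the last 60 coding bases, where 158 of the 159 members hold it. The bases after the capitals are the germline end of the V segment, where joining to D or J takes place. The V gene with the most counts in the heavy and in the kappa locus is given at length, the last 300 bases of the V exon of Ighv11-2 at chr12:114048241-114048540 on the minus strand and the whole V exon of Igkv14-126 at chr6:67896345-67896642 on the plus strand.
Ighv11-2: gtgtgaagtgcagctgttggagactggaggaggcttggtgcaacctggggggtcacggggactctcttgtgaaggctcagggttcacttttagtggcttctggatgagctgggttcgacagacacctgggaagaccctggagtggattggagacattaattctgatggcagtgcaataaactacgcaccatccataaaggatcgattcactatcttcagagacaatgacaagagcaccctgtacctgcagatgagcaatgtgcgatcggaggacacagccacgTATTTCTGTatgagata
Igkv14-126: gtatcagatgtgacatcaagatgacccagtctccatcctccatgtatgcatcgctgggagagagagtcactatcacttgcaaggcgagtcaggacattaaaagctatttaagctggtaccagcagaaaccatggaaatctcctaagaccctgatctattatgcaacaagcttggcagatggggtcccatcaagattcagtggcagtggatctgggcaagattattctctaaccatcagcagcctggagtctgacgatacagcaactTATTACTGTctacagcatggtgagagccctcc

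The last 90 bases of the V exon are given for 9 further members. Ighv11-1 (chr12:113981879-113981968, minus strand) is the near copy of Ighv11-2, with 98.7% identity of the coding V exons.
Ighv11-1: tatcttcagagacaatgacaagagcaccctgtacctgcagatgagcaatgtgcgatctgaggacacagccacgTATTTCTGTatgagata
Ighv9-3 (chr12:114140692-114140781, minus strand), Ighv1-15 (chr12:114657353-114657442, minus strand) and Igkv1-135 (chr6:67610419-67610508, plus strand) are shown because they are the V genes with the most counts in eGFPlo among those with none in eGFPhi.
Ighv9-3: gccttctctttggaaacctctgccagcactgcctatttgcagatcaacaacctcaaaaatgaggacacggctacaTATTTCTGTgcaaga
Ighv1-15: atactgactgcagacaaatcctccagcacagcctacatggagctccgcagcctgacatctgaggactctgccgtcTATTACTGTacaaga
Igkv1-135: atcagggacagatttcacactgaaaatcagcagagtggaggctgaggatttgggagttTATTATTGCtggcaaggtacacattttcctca
Igkv3-4 (chr6:70672288-70672377, plus strand) and Igkv8-21 (chr6:70314895-70314984, minus strand) are shown because they were higher in eGFPhi.
Igkv3-4: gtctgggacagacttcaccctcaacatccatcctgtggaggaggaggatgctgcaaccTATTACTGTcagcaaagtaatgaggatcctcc
Igkv8-21: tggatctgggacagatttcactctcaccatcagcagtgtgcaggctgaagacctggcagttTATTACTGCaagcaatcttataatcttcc
The lambda segments Iglv1 (chr16:19085017-19085106), Iglv2 (chr16:19260401-19260490) and Iglv3 (chr16:19241207-19241296), all on the minus strand, are the whole lambda set and are shown for comparison. Iglv1 and Iglv2 are 97.0% identical, while Iglv3 shares 54.3% with Iglv1 and 53.1% with Iglv2.
Iglv1: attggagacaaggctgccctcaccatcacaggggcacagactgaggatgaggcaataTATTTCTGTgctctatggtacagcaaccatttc
Iglv2: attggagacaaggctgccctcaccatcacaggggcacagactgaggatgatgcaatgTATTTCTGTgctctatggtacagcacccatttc
Iglv3: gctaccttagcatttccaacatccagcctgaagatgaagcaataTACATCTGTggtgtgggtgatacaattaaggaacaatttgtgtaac

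Such likeness limits how far single V genes can be told apart. A median of 76.7% of a member's 50-base transcript windows occurred in no other annotated V transcript, but 24 members had under 50% of windows of their own, and 77 members had another member at 95% identity or more. For 149 members the nearest relative belonged to the same subfamily. How reads shared between genes were counted is not given in the sources used here, so V genes are also described summed by locus and by subfamily. Splitting a read between members of the same subfamily does not move these sums. Dropping shared reads, or counting them for each gene, would move them. Igkv2-137 alone among the 159 overlaps an exon of another gene (Gm42889) on its own strand.

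Summed V transcripts were lower in eGFPhi in each of the 3 loci, although in the lambda locus this rested on Iglv1. V genes took 0.0374, 0.0369 and 0.0379% of all counts in the eGFPhi libraries and 0.254, 0.263 and 0.257% in the eGFPlo libraries, which is 4197, 9604 and 7365 counts in eGFPhi and 29724, 37715 and 46617 counts in eGFPlo. The groups lay far apart and the libraries of a group close together. Summed Ighv genes stood at 167, 167 and 172 CPM in eGFPhi and at 1158, 1216 and 1184 CPM in eGFPlo, a 7.05-fold lower level (log2 fold change -2.82, SE 0.03, edgeR adjusted p = 9.68e-10). Summed Igkv genes stood at 193, 191 and 193 CPM in eGFPhi and at 1363, 1393 and 1372 CPM in eGFPlo, 7.17-fold lower (log2 fold change -2.84, SE 0.02, edgeR adjusted p = 1.2e-10). In neither locus did the groups overlap.

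Summed Iglv genes had 13.5, 10.6 and 13.3 CPM in eGFPhi and 25.4, 26.6 and 25.8 CPM in eGFPlo, 2.10-fold lower (log2 fold change -1.07, SE 0.10, edgeR adjusted p = 7.8e-05), again without overlap. Without Iglv1 the log2 fold change of the lambda sum was 0.11 (edgeR adjusted p = 0.596), and Iglv3 was higher in eGFPhi. In the table with V genes summed by locus, 31.3% of 17932 rows were called lower in eGFPhi, and the median log2 fold change was 0.01. The exact two-sided permutation test of the 6 CPM values gave p = 0.1 for each locus, the smallest that 3 libraries against 3 allow. Of the light chain V counts, the lambda genes made up 6.54, 5.25 and 6.46% in eGFPhi and 1.83, 1.88 and 1.85% in eGFPlo. The lambda share was thus higher in every eGFPhi library (6.08 ± 0.724% in eGFPhi and 1.85 ± 0.0243% in eGFPlo, SD, n = 3 each; exact permutation p = 0.1). Of all V counts, Ighv genes held 45.1 ± 0.495% in eGFPhi and 45.8 ± 0.320% in eGFPlo, and the groups overlapped (exact permutation p = 0.2). Igkv genes held 51.5 ± 0.542% in eGFPhi and 53.2 ± 0.327% in eGFPlo, lower in every eGFPhi library (exact permutation p = 0.1).

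Genes of the antibody-making lineage moved with the V genes. For the lists that follow, 31.7% of all tested genes were called lower and 32.3% higher in eGFPhi. Of 15 B lineage genes listed, 14 were in the table. Of these, 12 were lower and 2, Cr2 and Cd74, higher in eGFPhi past the threshold. Their summed level was 83.5 to 92.3 CPM in eGFPhi and 585 to 604 CPM in eGFPlo, with Vpreb3, Igll1 (a surrogate light chain gene of precursor B cells) and Cd22 at 0 in eGFPhi. All 7 plasma cell genes were lower in eGFPhi (summed 117 to 173 CPM in eGFPhi and 408 to 713 CPM in eGFPlo), with Tnfrsf17 at 0 in eGFPhi, although Xbp1, which many cell types express, held 62.3 to 66.1 CPM of that sum in eGFPhi. The V(D)J recombination genes Rag1, Rag2 and Dntt summed to 3.85 to 4.61 CPM in eGFPhi and 236 to 255 CPM in eGFPlo, with Rag2 at 0 in eGFPhi. The 4 T cell genes summed to 0 to 0.257 CPM in eGFPhi and 7.97 to 11.5 CPM in eGFPlo, with Cd3e, Cd3g and Trbc2 at 0 in eGFPhi and 2 of 2 tested genes lower there. In bulk RNA, fewer cells of a type and less RNA per cell cannot be told apart, and the part of such cells in the V values was not tested.

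Constant region genes were measured beside their V genes. Of 12 constant genes, 11 were tested and 11 were lower in eGFPhi (31.7% of all tested genes). The 12 summed to 868 to 894 CPM in eGFPhi and 6731 to 6819 CPM in eGFPlo, with Ighd at 0 in eGFPhi. The 12th, Ighe, which encodes the IgE heavy chain, fell under the count filter and had 23 counts in eGFPhi and 4 in eGFPlo. Its library-scaled ratio of eGFPhi to eGFPlo counts was 4.46 (95% counting interval 1.53 to 17.8), and it was higher in every eGFPhi library. Ighm, which encodes the IgM heavy chain, had 388.9, 392.1 and 399.8 CPM in eGFPhi and 3048, 2972 and 3059 CPM in eGFPlo (7.69-fold lower, log2 fold change -2.94, SE 0.02, edgeR adjusted p = 1.44e-10). Igkc, the kappa constant gene, had 333, 331 and 344 CPM in eGFPhi and 2715, 2727 and 2736 CPM in eGFPlo (8.11-fold lower, log2 fold change -3.02, SE 0.02, edgeR adjusted p = 1.44e-10). For each Ighm count there were 0.428 ± 0.00288 Ighv counts in eGFPhi and 0.392 ± 0.0151 in eGFPlo. For each Igkc count there were 0.573 ± 0.0123 Igkv counts in eGFPhi and 0.505 ± 0.00546 in eGFPlo (SD, n = 3 each). Both ratios were higher in every eGFPhi library, with an exact permutation p of 0.1 each. The lambda ratio, over Iglc1, Iglc2 and Iglc3, was 0.403 ± 0.0723 in eGFPhi and 0.317 ± 0.0299 in eGFPlo, and the groups overlapped. V and constant counts thus differed between groups by similar factors in the heavy and kappa loci.

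Beneath the similar locus sums, single V genes differed in whether they were detected in eGFPhi. In eGFPhi, 86 of the 159 members (54.1%) had no count in any library, 45 of them Ighv, 41 Igkv and 0 Iglv. The next 2 had 1 count each, and the other 71 had 9 to 4429 counts. The value of 9 was that of Ighv6-3, so this range begins close to absence. Genes with few counts in both groups are left out by the minimum of 30 counts. Those with 1 count were Ighv1-77, whose library-scaled ratio of eGFPhi to eGFPlo counts was 0.00263 (95% counting interval 6.64e-05 to 0.0148), and Ighv1-31, with 0.0169 (0.000418 to 0.0988). Among all genes of the table with 30 or more counts, 1.94% had 0 counts in the 3 eGFPhi libraries. In eGFPlo, 157 members were counted in all 3 libraries and 1, Igkv8-21, in none. Members with no count in eGFPhi met the minimum of 30 counts through eGFPlo alone, so this near-complete detection was partly set by the rule. Detection in eGFPhi was nearly all or none over libraries, with 69 members counted in all 3 and 4 in 1 or 2 of them. The 4 were Ighv1-77, Ighv1-31, Ighv8-5 with 7, 16 and 0 counts in eGFPhi and 6, 15 and 13 in eGFPlo, and Igkv5-45 with 0, 28 and 0 in eGFPhi and 113, 138 and 138 in eGFPlo. The counts of Igkv5-45 in eGFPhi thus came from replicate 2 alone. Its near copy Igkv5-43, at 99.0% identity, held 2.16, 2.07 and 1.84% of Igkv counts in the eGFPhi libraries. Only 49.1% of the windows of Igkv5-45 were its own, so its counts may depend on how shared reads were assigned, which was not tested. These genes were named after their values were seen.

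**Figure D1:**
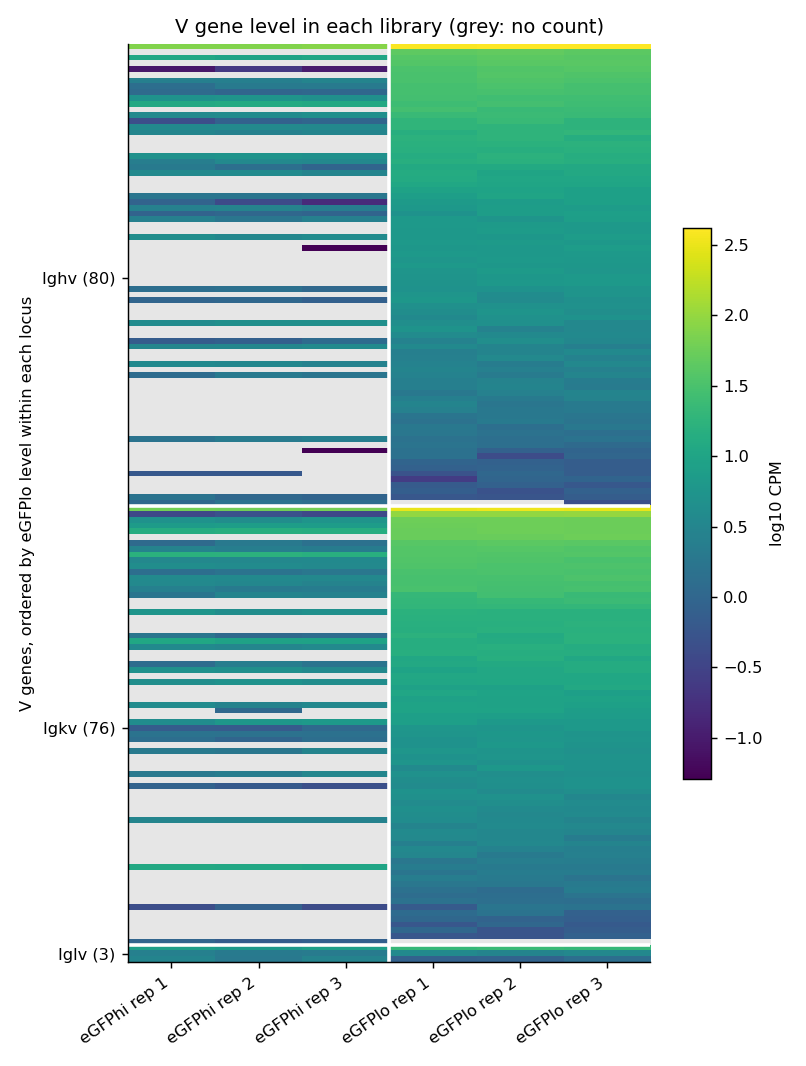
Level of each V gene (rows, ordered by eGFPlo level within the 80 Ighv, 76 Igkv and 3 Iglv genes) in the 3 eGFPhi and 3 eGFPlo libraries (columns), as log10 CPM by colour, with grey for no count. The 86 genes with no count in eGFPhi run as grey bars across all 3 eGFPhi columns, while the eGFPlo columns are filled almost throughout.

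The genes without counts in eGFPhi were not only the weakest ones. They held 28319 counts, or 24.8% of the V counts, in eGFPlo. Of 34 members with 100 counts or fewer in eGFPlo, 25 had none in eGFPhi; of the 55 next, up to 300, it was 38, of the 41 next, up to 1000, it was 18, and of 29 with over 1000 it was 5 (Igkv1-135, Ighv9-3, Ighv1-15, Ighv1-55 and Ighv5-9-1). Had each of the 86 kept the ratio of eGFPhi to eGFPlo counts of the rest of its locus, they would have had 5226.5 counts together in eGFPhi, at least 5 in each and 30 or more in 47. The 86 were picked for a count of 0 in eGFPhi and met the minimum of 30 counts through eGFPlo alone. At least 5 in each was thus set by that rule, and these values are no test of the absences. The share of own sequence windows had a median of 77.4% in these 86 members and 76.0% in the 71 with over 3 counts. A relative with 95% identity or more and counts in eGFPhi was the nearest member for 16 of the 86.

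By the test over all genes, 152 members could be tested and 7 fell under the count filter. Of the 152, 140 were lower in eGFPhi (92.1%, against 31.7% of all tested genes), 5 were higher (32.3% of all tested genes) and 7 were called in neither direction. Those 140 were 69 Ighv, 69 Igkv and 2 Iglv genes. Of them 79 had no count in eGFPhi; they passed the filter through eGFPlo alone and so had to differ. Among the 71 members with over 3 counts in eGFPhi, 59 were lower, 5 higher and 7 neither. All 3 eGFPhi values lay below all 3 eGFPlo values for 146 of the 159 members and above them for 5 (34.6 and 35.2% of tested genes), where those below include members with no count in eGFPhi, and 8 overlapped, namely the 7 called in neither direction and Igkv2-109. With an assumed biological coefficient of variation of 0.2, 137 were lower (16.5% of tested genes) and 4 higher (20.1%). In the 71 members with over 3 counts in eGFPhi, the library-scaled ratio of eGFPhi to eGFPlo counts had a median of 0.233.

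**Figure D2:**
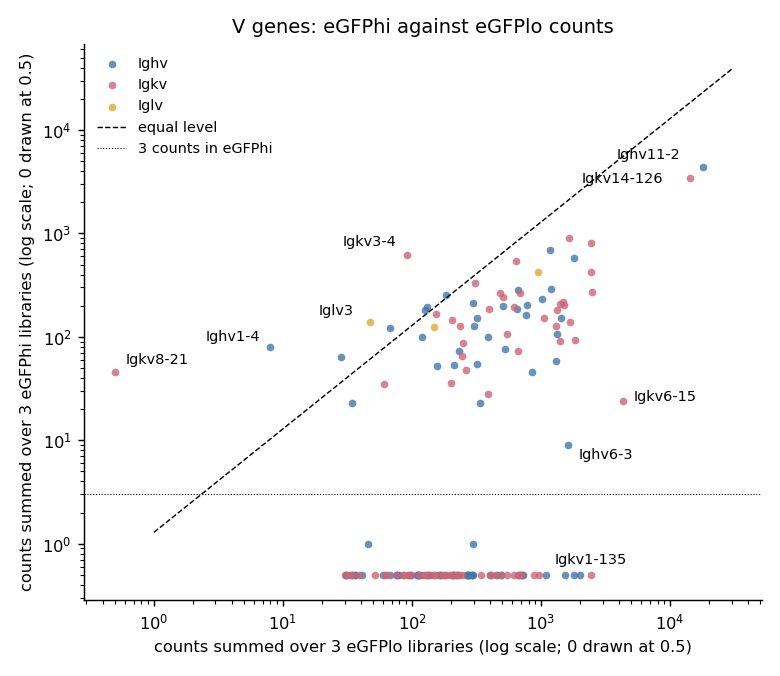
Counts of each V gene summed over the 3 eGFPhi libraries (vertical, log scale) against the 3 eGFPlo libraries (horizontal, log scale), coloured by locus, with 0 drawn at 0.5. The dashed line marks an equal level, the dotted line 3 counts in eGFPhi. Most points lie below the dashed line, 86 lie on the floor at 0 in eGFPhi, and Igkv3-4, Igkv8-21, Ighv1-4 and Iglv3 are among the points above the line.

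The same heavy and the same kappa gene led in both groups. Ighv11-2 (ENSMUSG00000096108) had 858, 1970 and 1601 counts in eGFPhi and 4621, 5980 and 7358 counts in eGFPlo. At 76.4, 75.7 and 82.2 CPM in eGFPhi and 396, 418 and 407 CPM in eGFPlo it was 5.21-fold lower in eGFPhi (log2 fold change -2.38, SE 0.04, edgeR adjusted p = 2.19e-08). Igkv14-126 (ENSMUSG00000094345) had 684, 1528 and 1223 counts in eGFPhi and 3681, 4807 and 5671 counts in eGFPlo. At 60.9, 58.7 and 62.8 CPM in eGFPhi and 315, 336 and 314 CPM in eGFPlo it was 5.29-fold lower (log2 fold change -2.40, SE 0.04, edgeR adjusted p = 2.19e-08). Neither gene's groups overlapped. Both were lower in eGFPhi by less than the sum of their locus, so their share was higher there. Ighv11-2 held 46.3 ± 1.24% of Ighv counts in eGFPhi and 34.3 ± 0.127% in eGFPlo, and Igkv14-126 held 31.6 ± 0.986% of Igkv counts in eGFPhi and 23.4 ± 0.642% in eGFPlo (SD, n = 3 each; exact permutation p = 0.1 each). As a share of FPKM, which corrects for length, Ighv11-2 held 45.0% in eGFPhi and 32.6% in eGFPlo.

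In mice, heavy chains built from the VH11 segment and light chains from Igkv14-126 are known as a pair in B-1a cells, a B cell population of the body cavities whose antibodies bind phosphatidylcholine. The other pair known for that binding is Ighv12-3 with Igkv4-91. Ighv12-3 had 0 counts in eGFPhi and 30, 51 and 51 in eGFPlo, at least 56.7-fold lower in eGFPhi, taking 3 counts over the group as the limit of a count of 0. Igkv4-91 had 29, 53 and 44 counts in eGFPhi and 364, 405 and 545 in eGFPlo (log2 fold change -3.73, SE 0.11, edgeR adjusted p = 2.14e-07). Ighv11-1, the near copy of Ighv11-2, had 57, 141 and 92 counts in eGFPhi and 333, 378 and 484 in eGFPlo. Its log2 fold change of -2.42 (SE 0.09) lay close to that of Ighv11-2, and reads of both genes cannot be cleanly separated. Ighv12-3, Igkv4-91 and Ighv11-1 were named after their values were seen.

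Apart from Ighv11-2, heavy chain genes with high counts differed widely. Ighv9-3 had no count in eGFPhi and 518, 682 and 787 counts in eGFPlo, at least 853-fold lower. Ighv1-15 likewise had 0 in eGFPhi and 446, 596 and 744 in eGFPlo (at least 767-fold lower), and Ighv1-55 had 0 in eGFPhi and 368, 531 and 632 in eGFPlo (at least 657-fold lower). Ighv5-9-1, with 0 in eGFPhi and 329, 330 and 425 in eGFPlo, was at least 465-fold lower. These genes were thus absent from the counts of every eGFPhi library while ranking among the most counted Ighv genes of eGFPlo. Ighv6-3 was close to absence, with 1, 6 and 2 counts in eGFPhi and 379, 527 and 698 in eGFPlo (log2 fold change -7.77, SE 0.20, edgeR adjusted p = 1.39e-07).

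Other heavy chain genes kept a clear level. Ighv1-9 had 131, 332 and 227 counts in eGFPhi and 302, 404 and 466 in eGFPlo, 2.21-fold lower in CPM (log2 fold change -1.14, SE 0.08, edgeR adjusted p = 1.32e-05). Ighv7-1 had 129, 244 and 208 counts in eGFPhi and 459, 621 and 719 in eGFPlo (log2 fold change -1.97, SE 0.09). Ighv3-6 had 28, 66 and 59 counts in eGFPhi and 366, 493 and 582 in eGFPlo (log2 fold change -3.60, SE 0.10). The groups of these 3 genes did not overlap in CPM, and their changes were called with edgeR adjusted p-values of 2.13e-07 to 1.32e-05. Of the 10 Ighv genes with the highest mean CPM in eGFPhi, 3 were among the 10 highest in eGFPlo (Ighv11-1, Ighv11-2 and Ighv7-1), and 3 of the 10 highest in eGFPlo had 0 counts in eGFPhi.

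Kappa genes showed the same mixture. Igkv1-135 had no count in eGFPhi and 630, 776 and 1036 in eGFPlo, at least 1048-fold lower. Igkv6-15, the second most counted kappa gene in eGFPlo, had 4, 13 and 7 counts in eGFPhi and 1139, 1383 and 1802 in eGFPlo (log2 fold change -7.83, SE 0.09, edgeR adjusted p = 3.62e-09). Igkv19-93 had 13, 51 and 29 counts in eGFPhi and 476, 620 and 746 in eGFPlo (log2 fold change -4.69, SE 0.14, edgeR adjusted p = 2.33e-07). At the other end, Igkv8-30 had 184, 434 and 292 counts in eGFPhi and 436, 516 and 683 in eGFPlo, 2.32-fold lower in CPM (log2 fold change -1.21, SE 0.06, edgeR adjusted p = 3.86e-06). Igkv12-46, Igkv10-96 and Igkv15-103 lay between, with log2 fold changes of -1.97, -2.89 and -3.55. In CPM the groups did not overlap for any of these 7 genes. Of the 10 Igkv genes highest in eGFPhi, 5 were among the 10 highest in eGFPlo (Igkv10-96, Igkv12-46, Igkv14-126, Igkv15-103 and Igkv8-30).

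In 5 members the level was higher in eGFPhi. Igkv3-4 had 130, 293 and 201 counts in eGFPhi and 26, 29 and 37 in eGFPlo, which is 11.6, 11.3 and 10.3 CPM in eGFPhi and 2.23, 2.03 and 2.05 CPM in eGFPlo (log2 fold change 2.39, SE 0.12, edgeR adjusted p = 2.47e-06). It held 5.74 ± 0.333% of kappa counts in eGFPhi and 0.153 ± 0.00946% in eGFPlo (SD, n = 3 each). Igkv8-21 had 11, 19 and 16 counts in eGFPhi and none in eGFPlo, at least 11.9-fold higher in eGFPhi (edgeR adjusted p = 0.00051). For both genes every eGFPhi library lay above every eGFPlo library. Igkv3-5, at 91.0% identity with Igkv3-4, went the other way, with 0 counts in eGFPhi and 21, 27 and 37 in eGFPlo, at least 36.5-fold lower in eGFPhi; it was named after its values were seen.

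Ighv1-4 had 12, 41 and 27 counts in eGFPhi and 0, 0 and 8 in eGFPlo (log2 fold change 2.90, SE 0.70, edgeR adjusted p = 0.00791). All its eGFPlo counts came from replicate 3, and without that library the fitted log2 fold change was 7.52, which is no bound because eGFPlo then held none of its counts. Its nearest relative, Ighv1-7, is 97.7% identical and had 0 counts in eGFPhi and 138 in eGFPlo, so the pair differed in opposite directions; Ighv1-7 was named after its values were seen. Iglv3 had 33, 51 and 56 counts in eGFPhi and 10, 13 and 24 in eGFPlo (log2 fold change 1.26, SE 0.26, edgeR adjusted p = 0.00398). Ighv1-59 had 18, 28 and 18 counts in eGFPhi and 7, 8 and 13 in eGFPlo (log2 fold change 0.85, SE 0.29, edgeR adjusted p = 0.0327). Its call was lost when any eGFPlo library or eGFPhi replicate 1 or 2 was left out (adjusted p = 0.0551 to 0.0927), and with DESeq2 (adjusted p = 0.188). In CPM the groups of all 3 genes did not overlap.

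A further 7 members passed in neither direction: Ighv1-54, Ighv1-85, Ighv14-4, Ighv3-1, Ighv8-5, Igkv4-70 and Igkv5-48. Their fitted log2 fold changes lay between -0.92 in Ighv8-5 (edgeR adjusted p = 0.301) and 0.49 in Ighv3-1 (edgeR adjusted p = 0.072). Ighv1-54, for example, had 45, 118 and 90 counts in eGFPhi and 52, 68 and 63 in eGFPlo. At 4.01, 4.53 and 4.62 CPM in eGFPhi and 4.45, 4.75 and 3.49 CPM in eGFPlo the groups overlapped (log2 fold change 0.07, SE 0.16, edgeR adjusted p = 0.709). The 7 genes were named after their values were seen, and a p above the threshold does not show that their levels were equal.

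Summed by subfamily, 33 of 34 could be tested, and Ighv13, with 41 counts in all, could not. Of the 33, 32 were lower in eGFPhi (31.4% of 17962 rows in that table), and 1, Iglv3, was higher (32.3%). Of the 32, 6 had no count in eGFPhi; they passed the filter through eGFPlo alone and so had to differ. The other 26 had counts in every eGFPhi library. In 7 Ighv and Igkv subfamilies every member had 0 counts in eGFPhi. Those with the most counts in eGFPlo were Ighv9, with 4 members and 2456 counts in eGFPlo (at least 1055-fold lower in eGFPhi), and Ighv2, with 6 members and 1371 counts in eGFPlo (at least 589-fold lower). Ighv10 (2 members), Ighv12, Ighv13, Igkv11 and Igkv13 (2 members) were the others. Another 15 of the 31 Ighv and Igkv subfamilies held both members at 0 and members with over 3 counts in eGFPhi, and 9 had no member at 0.

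Members of a subfamily did not move as a block. In Ighv1, with 38 members, 17 had no count in eGFPhi, and the log2 fold changes of the 19 with over 3 counts ran from -4.85 to 2.90. Its summed share of Ighv counts was nonetheless alike, at 30.3 ± 0.515% in eGFPhi and 30.4 ± 0.403% in eGFPlo, with overlapping groups. In Igkv6, 6 of 9 members had no count in eGFPhi, and the other 3 ran from -7.83 (Igkv6-15) to -0.54 (Igkv6-23, 547 counts in eGFPhi and 636 in eGFPlo). In Igkv3, 5 of 7 members were at 0 in eGFPhi beside Igkv3-4, which was higher there, and Igkv3-10 (log2 fold change -1.23, edgeR adjusted p = 4.41e-05). In Igkv8, 4 of 7 were at 0 beside the higher Igkv8-21, and in Igkv4 10 of 16. Igkv5 was the largest subfamily with no member at 0, its 4 members running from -4.29 to -0.32. Igkv6-23 and Igkv3-10 were named after their values were seen.

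As shares of their locus, which do not depend on the total, 4 Ighv subfamilies were higher in every eGFPhi library, 9 lower and 1 overlapped; for Igkv it was 7, 9 and 1. As shares of mean FPKM, 2 of these directions turned. Ighv14 held 1.95% of Ighv counts in eGFPhi and 1.33% in eGFPlo, but 1.27% of FPKM in eGFPhi and 1.43% in eGFPlo. Ighv3 held 2.83% of Ighv counts in eGFPhi and 3.42% in eGFPlo, but 2.68% of FPKM in eGFPhi and 2.40% in eGFPlo. Shares within a locus sum to the whole, so they are not independent of each other, and among levels of all tested genes 35.2% were higher and 34.6% lower in every eGFPhi library. Ighv11 held 48.9, 48.6 and 50.4% of Ighv counts in eGFPhi and 36.6, 36.5 and 36.7% in eGFPlo. Igkv14 held 32.4, 32.2 and 34.1% of Igkv counts in eGFPhi and 24.9, 26.3 and 24.8% in eGFPlo. Both subfamilies carry the leading V gene of their locus, and neither had overlapping groups. Igkv3 and Igkv8 were also higher, Igkv3 with 8.11 ± 0.456% in eGFPhi and 2.64 ± 0.0849% in eGFPlo, and Igkv8 with 10.6 ± 0.438% in eGFPhi and 5.85 ± 0.181% in eGFPlo. Igkv1 and Igkv6 were lower, Igkv1 with 3.22 ± 0.232% in eGFPhi and 11.4 ± 0.178% in eGFPlo, and Igkv6 with 5.70 ± 0.608% in eGFPhi and 12.1 ± 0.370% in eGFPlo (SD, n = 3 each). The exact permutation p was 0.1 for each of these 6 subfamilies.

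**Figure D3:**
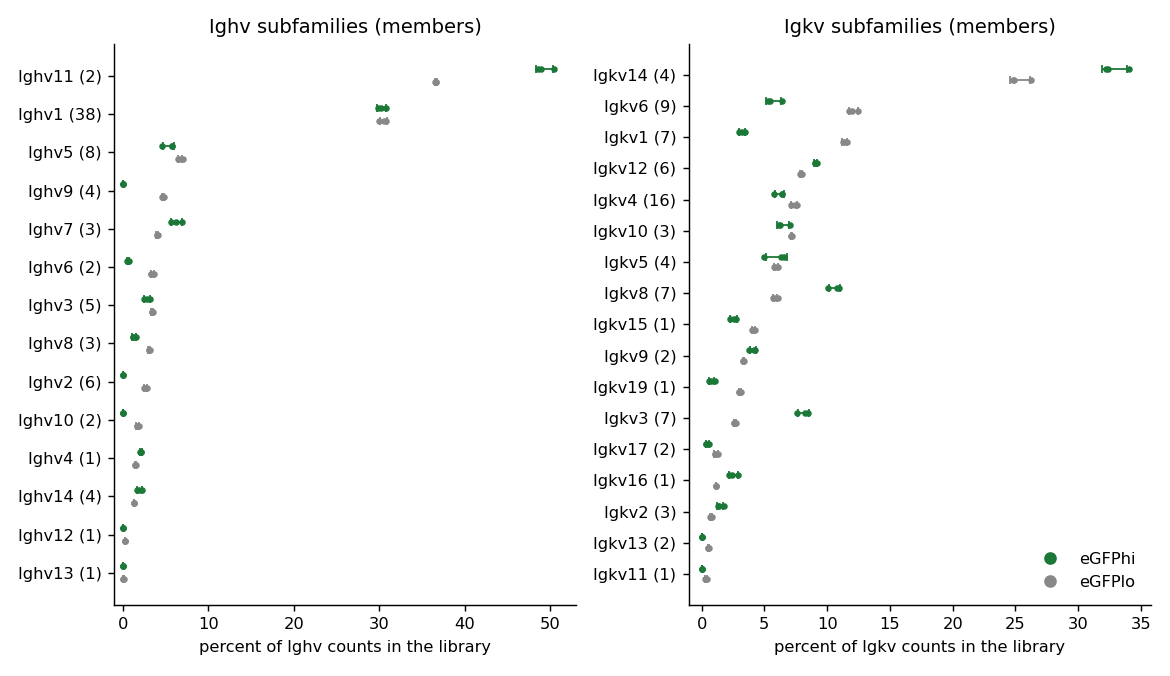
Percent of Ighv counts (left) and Igkv counts (right) held by each subfamily, with its number of members in brackets. Points are single libraries, and lines span the mean ± SD of the 3 eGFPhi (green) or 3 eGFPlo (grey) libraries. Ighv11, Igkv14, Igkv3 and Igkv8 lie to the right in eGFPhi, Igkv1, Igkv6 and Ighv9 to the left, and Ighv1 and Igkv5 overlap.

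The lambda genes differed from each other. Iglv1 had 90, 173 and 160 counts in eGFPhi and 243, 325 and 379 in eGFPlo (log2 fold change -1.51, SE 0.11, edgeR adjusted p = 1.51e-05). Iglv2, its close relative, had 29, 52 and 43 counts in eGFPhi and 43, 43 and 63 in eGFPlo (log2 fold change -0.61, SE 0.17, edgeR adjusted p = 0.0139). That call was lost with DESeq2 (adjusted p = 0.107), with the assumed coefficient of variation (0.0986) and without eGFPhi replicate 2 (0.055). Iglv3 was higher in eGFPhi, as given above, and held 21.7, 18.5 and 21.6% of lambda counts in eGFPhi and 3.38, 3.41 and 5.15% in eGFPlo. As given with the locus sums, the lower lambda sum rested on Iglv1.

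Fewer V genes made up the counts in eGFPhi. Members with no count in eGFPhi met the minimum of 30 counts through eGFPlo alone. The numbers of members detected in eGFPlo were thus partly set by that rule, and comparing at equal depth does not undo this. Of the 80 Ighv members, 33, 33 and 34 had a count in the eGFPhi libraries and 79, 79 and 80 in the eGFPlo libraries; of the 76 Igkv members it was 34, 35 and 34 in eGFPhi and 75, 75 and 75 in eGFPlo. The difference was nearly as large at equal depth: at 1872 Ighv counts per library the expected number was 32.9 ± 0.0875 in eGFPhi and 76.0 ± 0.440 in eGFPlo, and at 2173 Igkv counts 34.3 ± 0.578 in eGFPhi and 73.1 ± 0.0455 in eGFPlo. The effective number of V genes (inverse Simpson index, the number of equally used genes that would give the same concentration) was 4.34 ± 0.198 in eGFPhi and 7.69 ± 0.0576 in eGFPlo for Ighv. For Igkv it was 7.92 ± 0.307 in eGFPhi and 13.4 ± 0.450 in eGFPlo (SD, n = 3 each; exact permutation p = 0.1 for each). Without the leading gene the index was 17.5 ± 0.284 in eGFPhi and 35.3 ± 0.725 in eGFPlo for Ighv, and 17.6 ± 0.447 in eGFPhi and 29.5 ± 0.246 in eGFPlo for Igkv. The 10 most counted genes held 77.3 ± 0.665% of Ighv counts in eGFPhi and 61.1 ± 0.617% in eGFPlo.

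**Figure D4:**
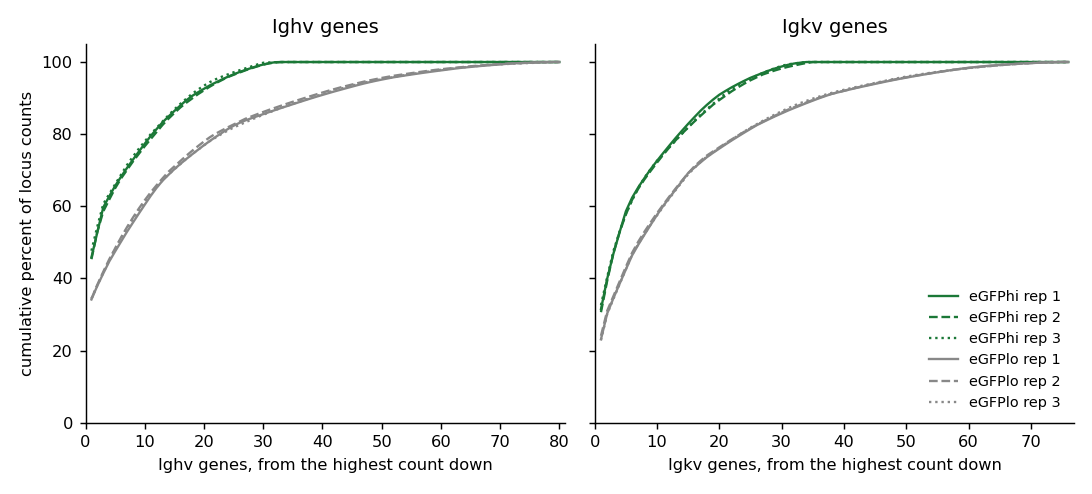
Cumulative percent of Ighv (left) and Igkv (right) counts against the number of V genes, for each eGFPhi (green) and eGFPlo (grey) library. Genes are members with 30 or more counts over all libraries, ranked from the highest count down. The 3 eGFPhi curves reach the whole count with 33 to 35 genes, while the 3 eGFPlo curves climb on to 75 or more genes.

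Libraries of a group shared their V makeup almost to counting error. A chi-square of V gene counts divided by its degrees of freedom, which is near unity where libraries differ by counting alone, was 1.32, 1.21 and 1.62 for the pairs of eGFPhi libraries and 1.33, 1.20 and 1.20 for the pairs of eGFPlo libraries. Between groups it was 29.0 to 54.4. Over the other genes with at least 10 counts in a pair and no more than the leading V gene it was 3.46 to 4.48 within groups and 28.5 to 47.0 between them, a range that overlaps that of the V genes; their counts were not matched one by one to those of V genes, and the measure grows with the count. Spearman correlations of V gene counts across the 159 members were 0.979 to 0.991 within groups and 0.430 to 0.452 between them, as a description across genes that share a library. Other genes of the antibody-making lineage were less even: Jchain, the joining chain of IgM and IgA, had 86.1, 86.9 and 38.7 CPM in eGFPhi and 225, 535 and 240 CPM in eGFPlo.

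Position along the locus was set out as a description. V segments lie in a row, and those nearest the J genes and those farthest away are known to be used at different stages of B cell development. Among the 40 Ighv members nearest the J genes, at 149 to 1083.5 kb, 27 had no count in eGFPhi, and among the 40 farther ones it was 18. For Igkv it was 23 of the 38 nearest and 18 of the 38 farther members. Without the leading gene, the nearest members held 42.7 ± 1.22% of Ighv counts in eGFPhi and 48.1 ± 0.720% in eGFPlo. For Igkv, again without the leading gene, they held 57.8 ± 0.749% in eGFPhi and 47.2 ± 0.224% in eGFPlo (SD, n = 3 each). Over all members, with the leading genes kept, they held 69.2 ± 0.584% of Ighv counts in eGFPhi and 65.9 ± 0.410% in eGFPlo, and 39.6 ± 0.967% of Igkv counts in eGFPhi and 36.1 ± 0.473% in eGFPlo. In all 4 comparisons the groups did not overlap (exact permutation p = 0.1 each). The share of the nearest Ighv members was thus higher in eGFPhi with Ighv11-2 and lower without it, while that of the nearest Igkv members was higher in eGFPhi either way. By strand, 17 of 31 plus and 24 of 45 minus strand Igkv members had no count in eGFPhi.

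**Figure D5:**
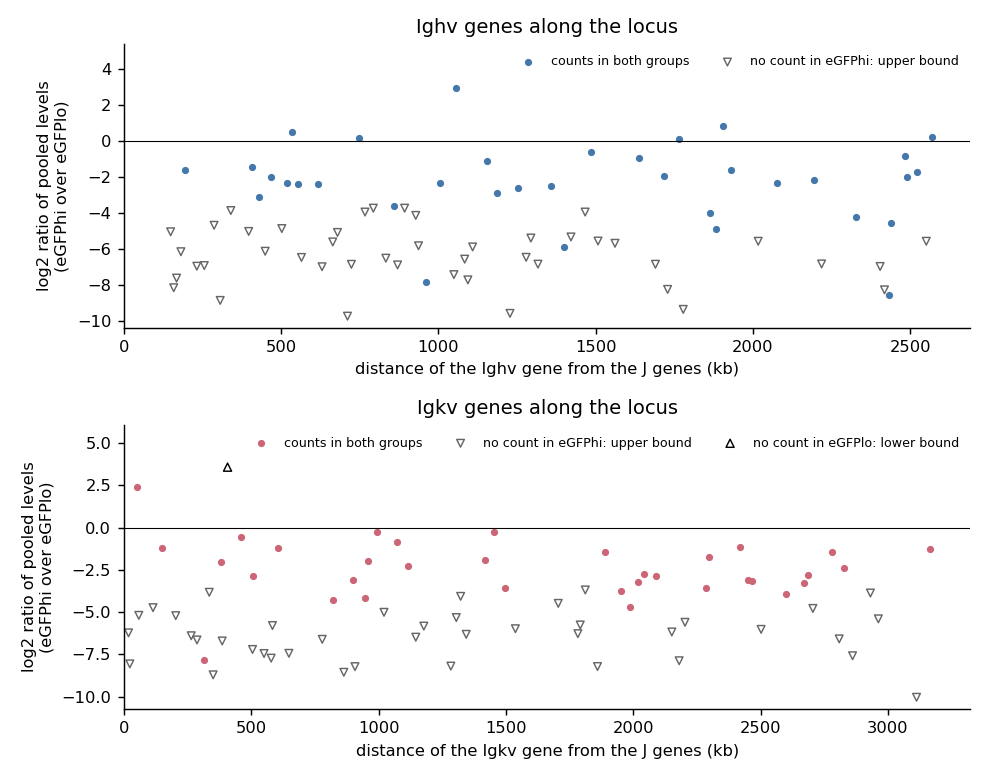
Log2 ratio of pooled eGFPhi over eGFPlo levels of each Ighv (top) and Igkv (bottom) gene against its distance from the J genes in kb; filled points have counts in both groups, downward triangles mark the upper bound of genes with no count in eGFPhi and the upward triangle the lower bound of Igkv8-21, with none in eGFPlo. Triangles and points are mixed along both loci.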

How the data were processed

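Poly-A RNA of 3 eGFPhi and 3 eGFPlo samples was sequenced as paired-end libraries made with a stranded kit, per the labels. The deposited table holds raw read counts per gene, per the file headers, and FPKM values (adjusted for gene length and library size) computed by the authors. The submitters' processing notes name CASAVA 1.8, HISAT2, StringTie and edgeR and the builds hg38 and GRCm38 without their roles; which counter was used, with which strand setting and rule for shared reads, is not given in the sources used here. Member positions equal those of GENCODE M21 on GRCm38.

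The counts were fitted with edgeR 4.0.16 in R 4.3.3, using filterByExpr defaults (minimum count 10, minimum total 15), TMM factors, quasi-likelihood F tests on group alone, and Benjamini-Hochberg adjustment over all genes tested, threshold 0.05. The same fit ran on tables with V genes summed per locus and per subfamily. The filter kept 99.7 to 99.9% of counts; totals were 11221070 to 26058391 counts, and 3 counts in 1 library equal 0.115 to 0.267 CPM. Genes with 0 counts in a group were given a bound from 3 counts over that group, and ratios and bounds cover counting error only. Single values were compared with exact two-sided permutation tests. Simulated data had the means and library sizes of this comparison (17601 genes). The fit called 100% of their genes at log2 changes of -4 and -2, 94% at -1, 96% at 1 and 0.0862% of unchanged genes. Every simulated gene had the common biological coefficient of variation of 0.0941, and changed genes were drawn from those with a mean above 1 CPM. Recovery at lower levels, and both rates for genes with more spread, were not simulated.

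Genes named are, per locus, those with the highest mean CPM (8 Ighv, 8 Igkv, all Iglv), the 5 lowest and 5 highest fold changes and each V gene called higher in eGFPhi; others are said to be named after their values were seen. The members and marker lists were chosen with earlier results of these data known. Alternatives tried were upper-quartile and RLE factors, no filter or one of 1 CPM in 3 libraries, DESeq2 1.42.0, limma-voom (limma 3.58.1), an assumed coefficient of variation of 0.2, a replicate block, other count minimums, leaving out the leading V gene or each library, the Shannon index and FPKM. Added after seeing the data were shares of FPKM, all heavy constant genes, and V genes with at least 50% of windows of their own. The values of 1 B lineage gene are not reported here on their own.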

Additional observations from a re-analysis of the deposited data

Results flagged for a closer look

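Under the minimum of 30 counts the table holds 29 further V genes, with 38 counts summed over the eGFPhi libraries and 231 over the eGFPlo libraries; 23 of them had 0 counts in eGFPhi and 4 had 0 in eGFPlo. A signal in eGFPhi without one in eGFPlo appeared in a pair of kappa genes among these. Igkv3-3 had 5, 11 and 6 counts in eGFPhi, 22 in all, and 0 in eGFPlo; Igkv4-92 had 0, 6 and 4 counts in eGFPhi, 10 in all, and 0 in eGFPlo. Igkv3-3 lies on chromosome 6 at 70686946 to 70687534, between Igkv3-4 and Igkv3-2. Of these neighbours, Igkv3-4 was higher in eGFPhi, while Igkv3-2 went the other way. Igkv3-2 had 0 counts in eGFPhi and held 1.03 ± 0.0347% of Igkv counts in eGFPlo (SD, n = 3), and was named after its values were seen. Igkv3-3 and Igkv4-92 were not tested.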

How the results depend on the processing

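Of 175 recomputed summary values 163 stayed the same, 11 moved and 1, the Iglv sum, reversed. For locus sums, the same meant the same direction and side of the threshold. For numbers of called genes or subfamilies it meant staying within a set factor. For shares, effective numbers, chi-square and V to constant ratios it meant a shift smaller than the SD, with no threshold applied. Of 334 values for single named genes 323 kept their direction and side of the threshold. The other 11 of those, all Ighv1-59 or Iglv2, kept their direction and lost their call. V genes called lower numbered 118 (V genes with windows of their own) to 147 (no filter), and 138 to 145 without single libraries. V genes called higher numbered 3 with the filter of 1 CPM and 2 with a minimum of 100 counts, where fewer genes were tested, and 4 to 5 without single libraries. The Iglv sum reversed to 0.11 without Iglv1 (edgeR adjusted p = 0.596). The Iglv3 share difference was 18.6 points as FPKM. With the Shannon index the effective numbers differed by -13.2 (Ighv) and -14.1 (Igkv). As FPKM the V to constant ratios differed by 0.135 (heavy), 0.106 (kappa) and 0.170 (lambda). Chi-square over its degrees of freedom in eGFPhi was 1.15 at a minimum of 30 counts a pair. That minimum leaves out Igkv5-45, among other genes, in the pairs of replicates 1 and 2 and of replicates 2 and 3. Without single libraries, chi-square over its degrees of freedom was 1.21 to 1.62 in eGFPhi and 1.20 to 1.33 in eGFPlo. Where not stated, the cause was not tested.

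Replicate numbers shared by both groups are not said to mark an animal or day, and residuals of same-numbered libraries did not correlate (r = -0.0133, 0.000555 and -0.0108). With a replicate block 139 V genes were lower and 4 higher, the log2 fold changes of the sums were -2.82 (Ighv), -2.84 (Igkv) and -1.07 (Iglv), and 32 subfamilies were lower and 1 higher. Ighv1-59 alone among the named genes lost its call (edgeR adjusted p = 0.0631).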
